A study of Rattus norvegicus with 64 samples.

Results

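Expression of 10 genes of T cells and cytotoxic lymphocytes was followed in rat bladders reconstructed with a graft. They were Cd3e, Cd3d and Cd3g, the co-receptor genes Cd4, Cd8a and Cd8b, Cd2, the killing genes Prf1 and Gzmb, and Foxp3. They were chosen by symbol, and each was matched to the non-control probes whose RefSeq accession carries that symbol, which gave 10 genes of the 15709 named on the array and 11 of its 30367 gene probes. Gzmb had 2 probes and the other 9 genes had 1 each. The bladders came from male Wistar rats that underwent hemicystectomy and received a graft of bladder acellular matrix (BAM), the bladder wall left after its cells are removed. In the BAM only groups the matrix carried no cells. In the other groups it carried 10000000 adipose-derived stromal cells (ASCs) of the third passage, grown from the fat of Wistar rats aged 10 weeks, so every control animal also had the operation and the matrix. The labels call the animals syngeneic, and no group without surgery was analysed here. The reconstructed wall was separated from the native wall at 7, 30, 90 or 180 days of follow-up, and RNA of 8 bladders per group was hybridized, 1 bladder per array, giving 64 one-color Agilent arrays.

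T cells recognize antigen through the T cell receptor, and the CD3 chains carry its signal into the cell. CD4 binds MHC class II and marks helper T cells, and CD8 binds MHC class I and marks cytotoxic T cells, but in the rat CD4 also lies on monocytes and macrophages and the CD8 alpha chain on NK cells. Cytotoxic T cells and NK cells kill through perforin and granzyme B, while FOXP3 is the transcription factor of regulatory T cells, which restrain the others. T cells enter wounds and implanted matrices together with macrophages and help to set how the tissue heals.

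The level of a gene is given on a log2 scale, as the processed signal of its probe relative to the 75th percentile on that array, so 0 is the brightness that 75% of the gene spots do not reach. Levels of different probes are not compared with each other. All 10 genes were well above background on all 32 arrays of 7 and 30 days. Of the 32 arrays of 90 and 180 days, Cd3d was well above background on 31, Cd3g on 30, Prf1 on 19, Cd4 on 18, Cd8a and Cd8b on 10 each, Cd3e on 7, Cd2 on 6, Foxp3 on 5 and Gzmb on 3. Over the 64 arrays these counts came to 63 for Cd3d, 62 for Cd3g, 51 for Prf1, 50 for Cd4, 42 each for Cd8a and Cd8b, 39 for Cd3e, 38 for Cd2, 37 for Foxp3 and 35 for Gzmb. None of these probes was saturated on any array. The later days were also scanned on another date, and between 35.54% and 64.59% of all gene spots were well above background there, against 73.28% to 95.58% on the arrays of 7 and 30 days. The step from 30 to 90 days therefore cannot be told apart from the change of scan date, and since each of the 8 slides held 1 group, slide and group cannot be told apart either. The local background around the spots was highest in the BAM only group of 90 days, with a median over arrays of 342.75 intensity units against 107.5 in the seeded group of that day. In whole tissue, fewer cells of a type and less RNA per cell cannot be told apart.

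**Figure D1:**
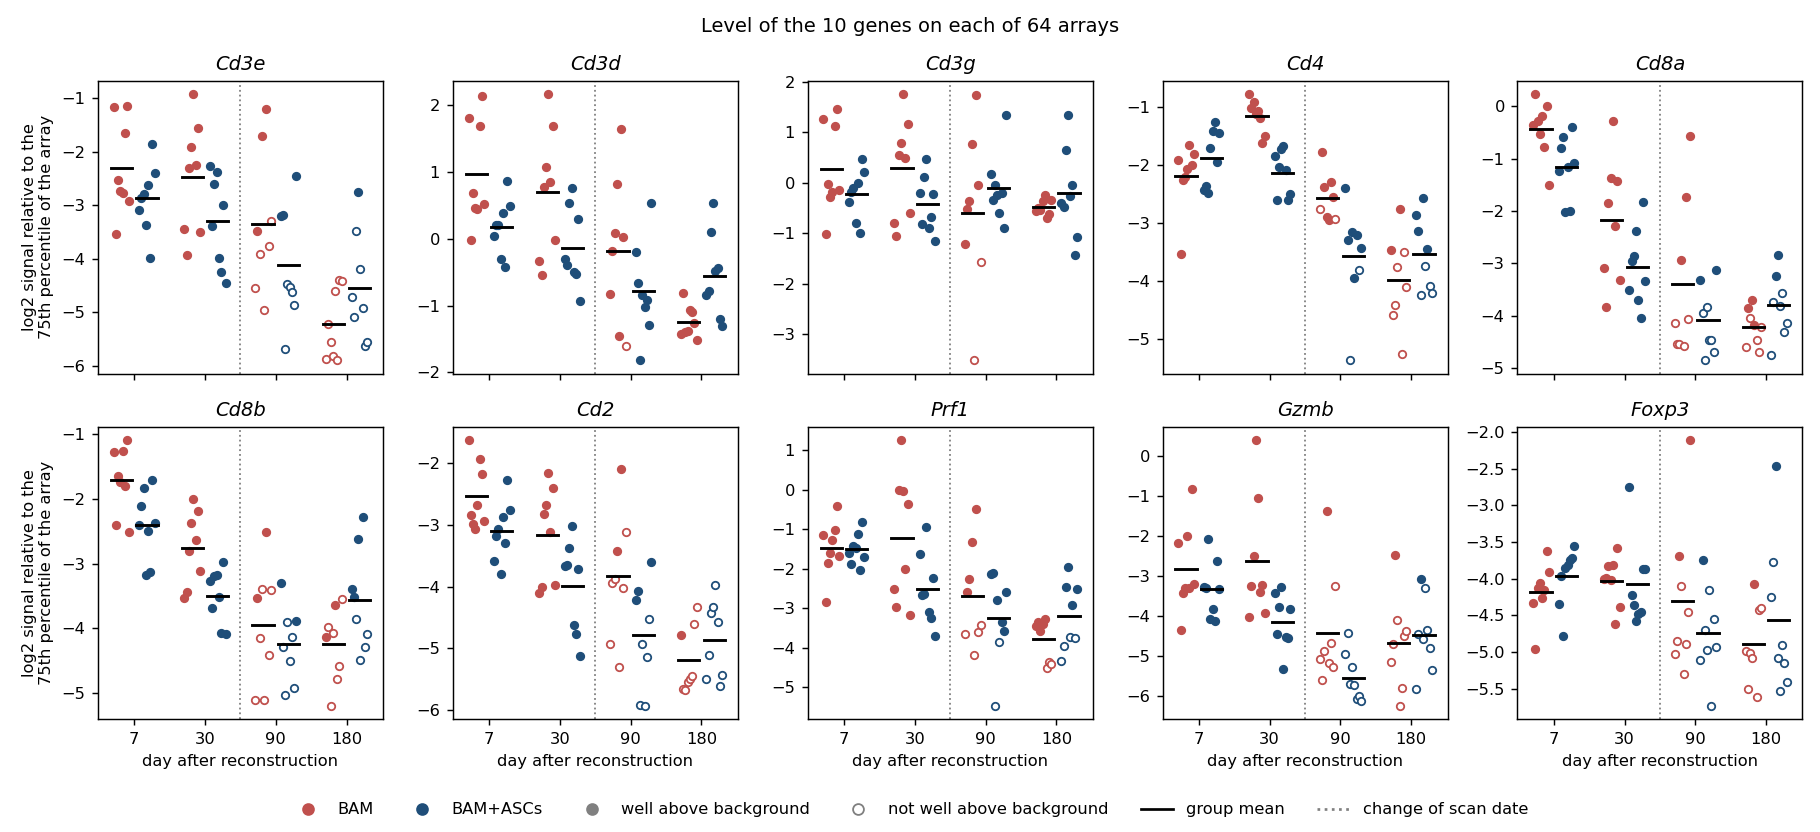
Level of each of the 10 genes (log2 scale, relative to the 75th percentile on each array) on all 64 arrays by graft and day of follow-up; filled points are well above background, open points are not, the black bar is the group mean and the dotted line marks the change of scan date. All points of 7 and 30 days are filled, and most points of Cd3e, Cd2, Gzmb and Foxp3 at 90 and 180 days are open.

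The bladders with seeded grafts were set against those with BAM only at each day, and 1 of the 10 genes passed the thresholds in 1 of these 4 comparisons. Cd4 was lower with ASCs at 90 days by 1.01 on the log2 scale (-1.01, 2.02-fold). A gene was called at a Benjamini-Hochberg adjusted p below 0.01 from limma, over all gene probes, with a fold change above 1.5. At 7 days 0 of 10 genes were called, where 7.75% of all gene probes were called in either direction, and 2 of the 10 had an unadjusted p below 0.05. At 30 days 0 of 10 were called against 1.66% of all probes, and 7 of the 10 had an unadjusted p below 0.05. At 90 days 1 of 10 was called lower against 8.78% of all probes, so the share of called members was close to that of the array as a whole. At 180 days 0 of 10 were called against 2.42% of all probes, and 1 of the 10 had an unadjusted p below 0.05. The same fit without moderation, each contrast tested by t, also called 0 of 10 at 7, 30 and 180 days.

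The fitted differences lay mostly to 1 side of 0 at each day. At 7 days 8 of the 10 were below 0, with a median of -0.54 against -0.17 over all probes. At 30 days 10 of 10 were below 0, from -1.53 for Gzmb to -0.04 for Foxp3, with a median of -0.84 against 0.11 over all probes. At 90 days 9 were below 0 with a median of -0.65 against -0.28, and at 180 days 10 were above 0 with a median of 0.43 against 0.05. With the percentile taken over detected probes the counts below 0 became 7 at 7 days and 9 at 30 days, and with quantile normalization the count became 7 at 90 days. These counts describe 10 genes measured on the same arrays, and no test was made over them as a set.

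**Figure D2:**
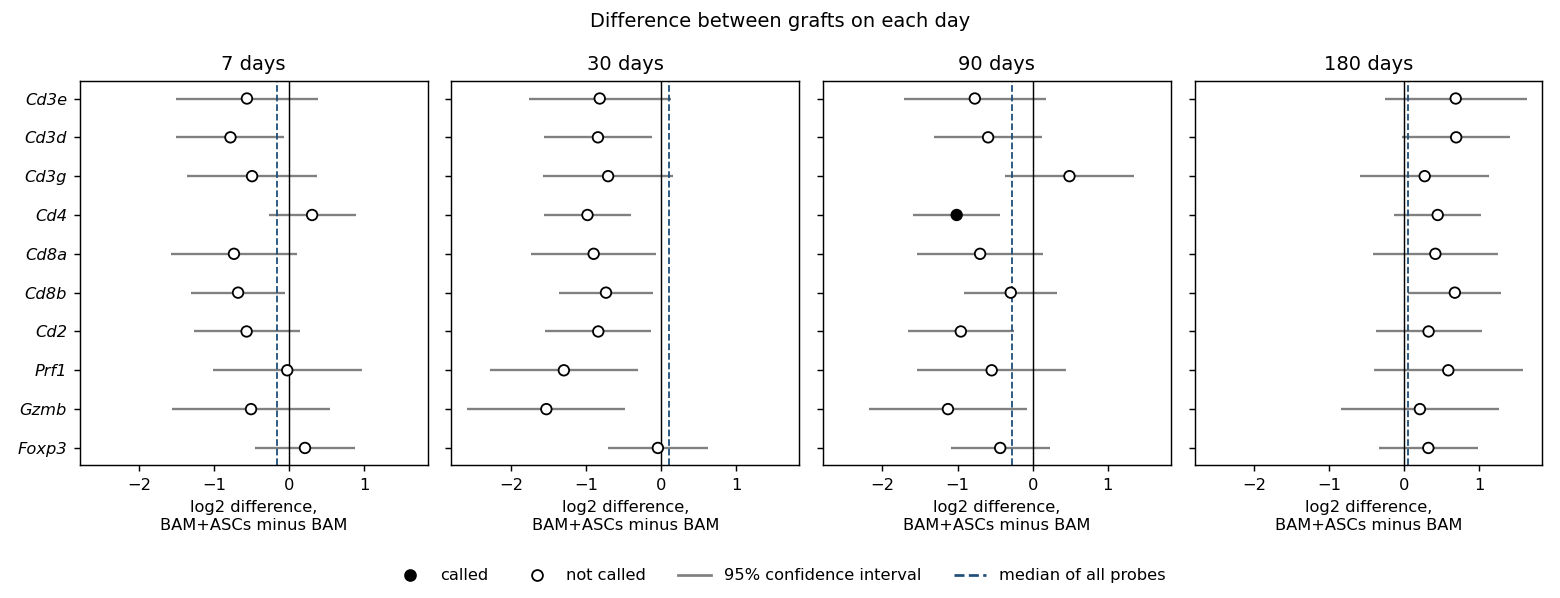
Log2 difference of BAM seeded with ASCs minus BAM only for each gene at 7, 30, 90 and 180 days of follow-up, with 95% confidence intervals from limma (8 arrays per group); the dashed line is the median difference of all gene probes and a filled point passed the thresholds. The points lie below 0 for 10 of 10 genes at 30 days and above 0 for 10 of 10 at 180 days, and Cd4 at 90 days (-1.01) is the filled point.

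Between days, the called members of the BAM only groups fell in all cases but 1. From 7 to 30 days, 1 gene rose (Cd4) where 4.38% of all probes rose, and 1 fell (Cd8a) where 4.24% fell. From 30 to 90 days 4 genes fell (Cd4, Cd8b, Prf1 and Gzmb) where 9.4% of all probes fell, and from 90 to 180 days 3 fell (Cd3e, Cd4 and Cd2) where 4.21% fell. The count of 4 became 2 (Cd4 and Cd8b) without replicate 4 of the 30 day group and 7 without replicate 6 of the 90 day group, which added Cd3g, Cd3d and Cd8a. In the groups with ASCs, 2 genes fell from 7 to 30 days (Cd8a and Cd8b) where 1.4% of all probes fell, and 1 fell from 30 to 90 days (Cd4) where 10.3% fell. From 90 to 180 days 0 of 10 genes were called with ASCs, against 4.13% of probes in either direction, with 2 at an unadjusted p below 0.05. The fit without moderation called 0 there too.

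The CD3 chains showed no called difference between the grafts. Cd3e, Cd3d and Cd3g encode the epsilon, delta and gamma chains that assemble with the T cell receptor. At 7 days Cd3d ran from -0.02 to 2.13 with BAM only (median 0.61) and from -0.43 to 0.87 with ASCs (median 0.21). At 30 days it ran from -0.54 to 2.17 (median 0.82) with BAM only and from -0.94 to 0.76 (median -0.34) with ASCs. The groups overlapped on both days, and of the seeded arrays 2 at 7 days and 1 at 30 days lay below every BAM only array. The difference of Cd3d was -0.78 (SE 0.36, limma adjusted p = 0.128) at 7 days and -0.84 (95% CI -1.56 to -0.12, adjusted p = 0.128) at 30 days.

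At 90 days Cd3d ran from -1.60 to 1.65 (median -0.07) with BAM only and from -1.82 to 0.54 (median -0.88) with ASCs. At 180 days the order of the medians was the other way: BAM only lay between -1.51 and -0.81 (median -1.32), and the seeded arrays between -1.31 and 0.54 (median -0.64). The BAM only group of 180 days was the tightest of the 8 for Cd3d, and 5 of 8 seeded arrays lay above all of it. The differences were -0.59 (SE 0.36, adjusted p = 0.178) at 90 days and 0.69 (-0.03 to 1.41, adjusted p = 0.39) at 180 days. The change between these differences, 1.28, had an adjusted p of 0.0593 from limma.

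Cd3e, a dimmer probe, followed the same course until 30 days, with medians of -2.63 and -2.82 at 7 days and -2.27 and -3.19 at 30 days for BAM only and BAM with ASCs. It fell from 90 to 180 days in the BAM only groups, from a range of -4.96 to -1.20 (median -3.61) to one of -5.89 to -4.39 (median -5.39). The fitted fall was -1.87 on the log2 scale (limma adjusted p = 0.00185). Cd3e was well above background on 3 of 8 arrays at 90 days and 0 of 8 at 180 days, so the size of the fall is uncertain. With normexp background correction the difference was -0.88 (limma adjusted p = 0.0231). With only the groups compared in the fit the adjusted p was 0.0191, so the call was lost in both.

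Cd3g was well above background on 62 of 64 arrays and had no called change. Its medians with BAM only were -0.09, 0.52, -0.45 and -0.52 at 7, 30, 90 and 180 days, and with ASCs they were -0.14, -0.44, -0.22 and -0.33. The BAM only arrays of 90 days ran from -3.51 to 1.74, and the lowest of them, replicate 5, was not well above background. The BAM only arrays of 180 days ran from -0.70 to -0.23. The change from 90 to 180 days with BAM only was 0.11 (-0.75 to 0.97, limma adjusted p = 0.86), while that of Cd3d was -1.06 (adjusted p = 0.0241). Between neighbours in the order of the 8 group means, 0 of 7 gaps exceeded the larger SD of the pair for each of Cd3e, Cd3d and Cd3g.

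The start regions of the CD3 genes are shown because these genes lie side by side and their levels moved together over arrays, as given further on. RefSeq windows of assembly GRCr8, 250 bases before to 50 bases after each start, were found for 8 of the 10 genes (not Cd4 and Cd8b) among 33469 windows. The window of Cd3g is at chr8:54183869-54184168 on the minus strand, that of Cd3d at chr8:54185269-54185568 on the plus strand and that of Cd3e at chr8:54211721-54212020 on the minus strand. Cd3g and Cd3d are read away from each other, with 1100 bases between their windows, and 26152 bases separate those of Cd3d and Cd3e. The capitals mark GGAAG or its complement CTTCC in each sequence from 5′ to 3′ on the strand of the gene. GGAAG is a longer form of GGAA, a core bound by ETS factors, and other GGAA or TTCC stretches are not marked.
Cd3e: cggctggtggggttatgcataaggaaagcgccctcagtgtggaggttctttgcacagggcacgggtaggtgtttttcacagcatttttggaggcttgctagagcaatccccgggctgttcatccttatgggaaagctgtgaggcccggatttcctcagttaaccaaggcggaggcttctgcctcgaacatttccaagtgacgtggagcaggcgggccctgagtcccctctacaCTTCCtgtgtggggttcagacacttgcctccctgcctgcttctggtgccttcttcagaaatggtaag
Cd3d: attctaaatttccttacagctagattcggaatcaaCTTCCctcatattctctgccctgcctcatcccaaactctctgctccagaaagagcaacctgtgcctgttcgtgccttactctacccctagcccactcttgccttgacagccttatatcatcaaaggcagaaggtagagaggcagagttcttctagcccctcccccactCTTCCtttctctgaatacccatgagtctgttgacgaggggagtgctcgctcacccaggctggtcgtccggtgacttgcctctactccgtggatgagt
Cd3g: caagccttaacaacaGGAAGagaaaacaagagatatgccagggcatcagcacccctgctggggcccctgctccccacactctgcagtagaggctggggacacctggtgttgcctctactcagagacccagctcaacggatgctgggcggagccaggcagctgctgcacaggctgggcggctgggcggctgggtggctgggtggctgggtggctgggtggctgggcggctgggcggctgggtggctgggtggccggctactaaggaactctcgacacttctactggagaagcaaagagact
On both strands GGAAG was found 1 time in the window of Cd3e, 2 times in that of Cd3d and 1 time in that of Cd3g. It lay in 7 of the 8 windows (all but Cd8a) and in 70.1% of all windows of this length. GGGCGG, the core of the SP1 motif, lay in 33.1% of all windows and in 1 of the 8, that of Cd3g, with 5 matches. TGTGGT, a RUNX core, lay in 17.3% of all windows and in 3 of the 8, those of Cd2, Prf1 and Gzmb. Matches of different motifs were counted separately where they overlapped, and a match describes the letters only.

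Cd4, which marks helper T cells and in the rat also macrophages, was the 1 gene of the 10 called between the grafts. At 7 days it ran from -3.54 to -1.66 with BAM only (median -2.05) and from -2.48 to -1.26 with ASCs (median -1.83). At 30 days it ran from -1.63 to -0.79 with BAM only (median -1.10) and from -2.61 to -1.67 with ASCs (median -2.06). The arrays of the 2 grafts overlapped at 7 days, and at 30 days all 8 seeded arrays lay below all 8 BAM only arrays, a separation in 1 direction or the other that 1.93% of probes showed.

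The difference of Cd4 at 30 days was -0.98 (95% CI -1.56 to -0.40), 1.97-fold, with a limma adjusted p of 0.0262, and so was not called. It was called with normexp (-0.81, adjusted p = 0.00342), with quantile normalization (-1.10, adjusted p = 0.00886) and with only the groups compared in the fit (adjusted p = 0.00389). At 7 days the difference was 0.30 (-0.28 to 0.88, adjusted p = 0.526). The change between the differences of 7 and 30 days was -1.28 (SE 0.41, adjusted p = 0.0469), and for that change 0 of 10 genes were called where 0.985% of all probes were, with 1 of the 10 at an unadjusted p below 0.05.

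At 90 days Cd4 ran from -2.94 to -1.78 with BAM only (median -2.67) and from -5.37 to -2.39 with ASCs (median -3.37). Of the seeded arrays 7 of 8 lay below every BAM only array, and 6 of 8 arrays of each group were well above background. The difference was -1.01 (-1.59 to -0.43), with a limma adjusted p of 0.00628. The call was lost with normexp (-0.52, adjusted p = 0.0434), with quantile normalization (-0.86, adjusted p = 0.0133) and with only the groups compared in the fit (adjusted p = 0.0249), and on leaving out any 1 of 6 arrays, replicates 3, 5 and 7 with ASCs and replicates 2, 3 and 6 with BAM only (-0.98 to -0.76, adjusted p from 0.0111 to 0.0292). The BAM only group of that day also had the highest local background, whose part in the result was not tested.

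At 180 days Cd4 ran from -5.26 to -2.77 with BAM only (median -3.94) and from -4.24 to -2.57 with ASCs (median -3.60), with 2 and 4 of 8 arrays well above background. The groups overlapped, and the difference was 0.45 (-0.13 to 1.02, limma adjusted p = 0.574). The difference between the grafts changed by 1.46 (SE 0.41, adjusted p = 0.00715) from 90 to 180 days, and Cd4 was the 1 gene of 10 called for it, where 5.98% of all probes were called higher. That call was lost with normexp (0.74, adjusted p = 0.0465), with quantile normalization (1.11, adjusted p = 0.032) and with the percentile over detected probes (1.43, adjusted p = 0.0103), and on leaving out any 1 of 12 arrays, replicates 3, 5 and 7 with ASCs and 2, 3 and 6 with BAM only at 90 days and replicates 1, 2 and 4 with ASCs and 2, 3 and 6 with BAM only at 180 days (1.20 to 1.43, adjusted p from 0.0107 to 0.0186). For the change from 30 to 90 days 0 of 10 genes were called against 10.1% of all probes, with 0 at an unadjusted p below 0.05. The fit without moderation called 0 as well.

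The steps of Cd4 in time were as follows, and of the tests of a difference between the grafts only that of the step from 90 to 180 days, given above with the settings that end it, was called. With BAM only Cd4 rose by 1.03 (2.04-fold, limma adjusted p = 0.00634) from 7 to 30 days, all 8 arrays of 30 days lying above all 8 of 7 days, as in 6.12% of probes in either direction. Without replicate 2 of the BAM only group at 7 days, its lowest array, the rise was 0.84 (adjusted p = 0.0291), and the call was also lost without replicate 3 of that group or any 1 of replicates 1 to 5 of BAM only at 30 days (adjusted p up to 0.0148). With ASCs the change was -0.25 (-0.83 to 0.33, adjusted p = 0.519). From 30 to 90 days Cd4 fell with both grafts, by 1.41 with BAM only (adjusted p = 2.73e-05) and by 1.44 with ASCs (adjusted p = 4.06e-05), across the change of scan date. From 90 to 180 days it fell by 1.42 with BAM only (2.67-fold, adjusted p = 0.00011), with 6 and 2 of 8 arrays well above background, and the change with ASCs was 0.04 (-0.54 to 0.62, adjusted p = 0.933).

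Cd8a and Cd8b, the chains of the CD8 co-receptor of cytotoxic T cells, fell from 7 to 30 days. Cd8a ran from -1.51 to 0.23 at 7 days (median -0.31) and from -3.82 to -0.28 at 30 days (median -2.06) with BAM only. With ASCs it ran from -2.02 to -0.40 (median -1.12) and from -4.03 to -1.82 (median -3.14). The ranges of 7 and 30 days overlapped with each graft, and with ASCs 7 of 8 arrays of 30 days lay below every array of 7 days. The fall was 3.38-fold with BAM only (-1.76, SE 0.42, limma adjusted p = 0.00121) and 3.77-fold with ASCs (-1.92, adjusted p = 0.000526).

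Cd8b fell 2.14-fold with ASCs from 7 to 30 days (-1.10, limma adjusted p = 0.00727), from a median of -2.39 to one of -3.39, with 7 of 8 arrays of 30 days below every array of 7 days. The call was lost with the replicate number as a block (adjusted p = 0.0107) and on leaving out any 1 of 10 arrays, replicates 1, 2, 3, 5, 7 and 8 of 7 days and 2, 5, 6 and 8 of 30 days (adjusted p from 0.0102 to 0.0195). With BAM only its change of -1.05 (median -1.70 to -2.72) had an adjusted p of 0.0102 and was not called. Over the same step the CD3 chains changed by -0.42 for Cd3e, -0.31 for Cd3d and -0.20 for Cd3g with ASCs, and by -0.17, -0.26 and 0.01 with BAM only, and these changes were not called.

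From 30 to 90 days Cd8b fell by 1.19 with BAM only (limma adjusted p = 0.000739), from a range of -3.53 to -2.01 to one of -5.11 to -2.51. The normexp correction gave -0.33 (adjusted p = 0.129) and lost the call. Cd8a changed by -1.21 over that step (limma adjusted p = 0.0102), with a BAM only range at 90 days of -4.57 to -0.57. The highest of these arrays, replicate 8, had the lowest r of the 64 arrays with the median of its own group (0.9047). It also had the lowest share of gene spots well above background (35.54%). Only 2 or 3 of 8 arrays per group were well above background for Cd8a at 90 and 180 days, and 2 to 4 of 8 for Cd8b.

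Between the grafts, Cd8a differed by -0.74, -0.90, -0.70 and 0.41 at 7, 30, 90 and 180 days, with limma adjusted p from 0.163 to 0.83. Cd8b differed by -0.68 (95% CI -1.30 to -0.06), -0.73 (-1.35 to -0.11), -0.29 (-0.91 to 0.33) and 0.67 (0.05 to 1.29), with adjusted p from 0.124 to 0.454. The arrays of the grafts overlapped at each day for both genes. With quantile normalization the difference of Cd8b at 90 days turned to 0.49.

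Cd2, an adhesion receptor of T and NK cells, had its highest mean with BAM only at 7 days and its lowest with BAM only at 180 days. At 30 days it ran from -4.10 to -2.16 with BAM only (median -2.97) and from -5.13 to -3.02 with ASCs (median -3.69). At 90 days it ran from -5.30 to -2.09 (median -3.90) with BAM only and from -5.93 to -3.60 (median -4.73) with ASCs. The seeded arrays reached lower on both days, 3 of 8 and 2 of 8 of them below every BAM only array. The differences were -0.84 (limma adjusted p = 0.123) and -0.96 (-1.66 to -0.25, adjusted p = 0.0313), and the second of them was called without replicate 5 of the BAM only group of 90 days (-1.17, adjusted p = 0.00975). At 7 and 180 days the differences were -0.57 and 0.32.

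From 90 to 180 days Cd2 fell by 1.36 with BAM only (limma adjusted p = 0.0025), to a range of -5.67 to -4.33. It was well above background on 2 of 8 arrays at 90 days and 1 of 8 at 180 days, and the call was lost with normexp (-0.38, adjusted p = 0.189), with only the groups compared (adjusted p = 0.0285) and without replicate 6 of the BAM only group of 90 days (-1.11, adjusted p = 0.0134).

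Prf1 and Gzmb, which encode the pore-forming protein perforin and the protease granzyme B, had the largest fitted differences of the 10 genes at 30 days. Prf1 ran from -3.17 to 1.26 with BAM only at 30 days (median -1.19) and from -3.69 to -0.95 with ASCs (median -2.66). Gzmb ran from -4.04 to 0.41 with BAM only (median -3.25) and from -5.34 to -3.28 with ASCs (median -4.14). The BAM only arrays of that day were widely spread, their highest level being 21.6 times the lowest for Prf1 and 21.8 times for Gzmb, and the grafts overlapped for both.

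The difference at 30 days was -1.29 for Prf1 (95% CI -2.28 to -0.31, limma adjusted p = 0.087) and -1.53 for Gzmb (-2.58 to -0.47, adjusted p = 0.057), and neither was called. At 7 days Prf1 had medians of -1.44 with BAM only and -1.54 with ASCs, and its difference of -0.03 (-1.02 to 0.96, adjusted p = 0.976) lay on either side of 0 as single arrays were left out. Gzmb differed by -0.51 (adjusted p = 0.561) at 7 days, with medians of -3.24 and -3.32. At 180 days the differences were 0.59 for Prf1 and 0.21 for Gzmb.

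At 90 days Gzmb was well above background on 1 of 8 BAM only arrays and 0 of 8 seeded arrays. Its levels ran from -5.61 to -1.38 (median -4.98) with BAM only and from -6.13 to -4.43 (median -5.73) with ASCs. The fitted difference was -1.13 (limma adjusted p = 0.0827), and under the other settings it came as near to 0 as -0.14. The other probe of Gzmb gave -0.33, -1.21, -1.45 and -0.44 at the 4 days, with adjusted p of 0.713, 0.126, 0.0255 and 0.881, so the 2 probes differ in sign at 180 days. The rat genome holds close relatives of this gene, and the files do not show which transcripts each probe binds.

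With BAM only both genes fell from 30 to 90 days. Prf1 fell by 1.46 (limma adjusted p = 0.00839), to a range of -4.18 to -0.48 with 4 of 8 arrays well above background. The call was lost with normexp (-1.02, adjusted p = 0.0236), the percentile over detected probes (-1.44, adjusted p = 0.0115), only the groups compared (adjusted p = 0.0782), dim probes left out (adjusted p = 0.0118), without the 3 arrays least like their groups (-1.36, adjusted p = 0.0176), and on leaving out any 1 of 9 arrays, replicates 3, 4, 5 and 7 of 30 days and 1, 2, 5, 7 and 8 of 90 days (adjusted p from 0.0109 to 0.0423). Gzmb fell by 1.79 (adjusted p = 0.00252), and its other probe changed by -0.90, which was not called (adjusted p = 0.119). The Gzmb call was lost with normexp (-1.09, adjusted p = 0.0118), with only the groups compared (adjusted p = 0.0349) and without replicate 4 of the BAM only group of 30 days (-1.36, adjusted p = 0.0165).

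Foxp3, the regulator of regulatory T cells, had no called change between grafts or days. Its highest group median was -3.83, with ASCs at 7 days. The seeded arrays of 7 days ran from -4.78 to -3.55 and the BAM only arrays from -4.96 to -3.62. The grafts overlapped at each day, and the differences were 0.21 (95% CI -0.45 to 0.87), -0.04 (-0.70 to 0.62), -0.43 (-1.09 to 0.23) and 0.32 (-0.34 to 0.98) at 7, 30, 90 and 180 days. At 90 and 180 days the probe was well above background on 1 or 2 of 8 arrays per group, so differences there were hardly measurable.

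Within a group, the same bladders stood high or low for many of the 10 genes. In the BAM only group of 30 days, replicates 4 and 5 lay above the group mean for 10 of 10 genes, replicate 3 for 9 and replicate 7 for 8, while replicate 8 lay above it for 0. In the BAM only group of 7 days replicate 7 lay above the mean for 10 genes and replicates 2 and 4 for 1 each. In that of 90 days, replicates 1 and 5 lay above it for 0. The SD over the 8 arrays, as the median over the 10 genes, was 1.19 for BAM only at 90 days and 0.98 for BAM only at 30 days, against 0.69 and 0.64 with ASCs at these days, and the smallest was 0.49 with ASCs at 7 days.

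**Figure D3:**
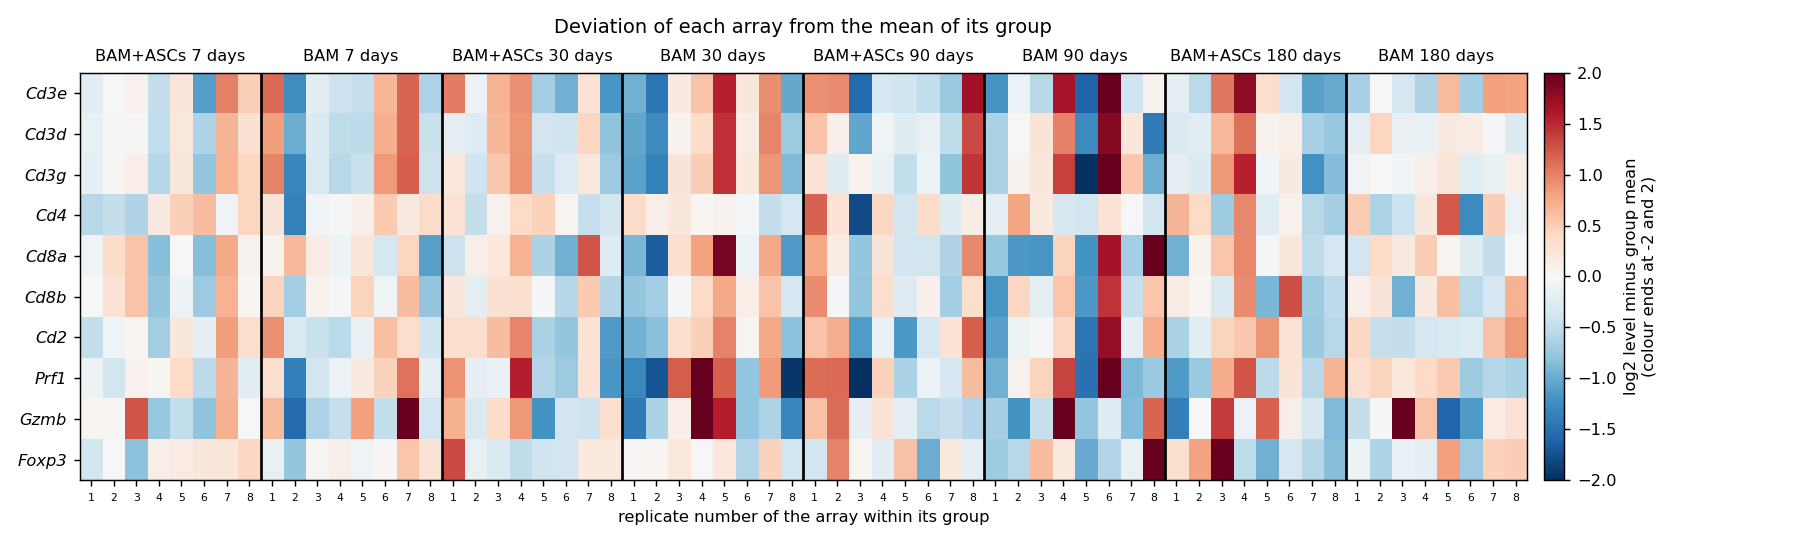
Deviation of each gene (rows) from its group mean on each of the 64 arrays (columns, by group and replicate), on the log2 scale, with the colors ending at -2 and 2. Whole columns share a color in places, for example replicates 4 and 5 of BAM only at 30 days, high for 10 of 10 genes, and replicates 1 and 5 of BAM only at 90 days, high for 0.

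Correlations of these deviations were computed over the 64 arrays for the 45 pairs of genes, with two-sided permutation tests within groups. Of the 45 pairs, 33 passed an adjusted p (Benjamini-Hochberg) of 0.05 by Pearson r and 28 by Spearman rho, and 1e-05 was the smallest p the 100000 permutations could give. The genes share the scaling of each array, and its part in these correlations was not tested. The 3 pairs of CD3 chains passed by both, with rho from 0.83 to 0.93 and r from 0.85 to 0.92, from 0.94 to 0.98 over the 32 arrays of 7 and 30 days and from 0.77 to 0.88 over the 32 of 90 and 180 days. Without the 2 arrays farthest from the median, r was 0.82 to 0.91.

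The CD3 chains with Cd8a, Cd8b, Cd2, Prf1 and Gzmb gave r from 0.37 to 0.85 and rho from 0.38 to 0.83, and 15 of 15 pairs passed by both. These 5 genes among themselves gave r from 0.30 to 0.67 and rho from 0.38 to 0.69, and 10 of 10 passed by both, though over the 90 and 180 day arrays r went as low as 0.06. Cd4 passed with 5 of its 9 partners by r (-0.07 to 0.36 over the 9) and with 0 of 9 by rho (-0.13 to 0.26), and 0 of these 5 pairs passed over the arrays of 7 and 30 days alone. Over those arrays Cd4 passed with Cd8a in the opposite direction (r = -0.35, permutation adjusted p = 0.0442) and with Foxp3 (r = 0.39, adjusted p = 0.0484). Foxp3 passed with 0 of 9 over the 64 arrays by r or rho, with r from 0.0050 to 0.27.

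**Figure D4:**
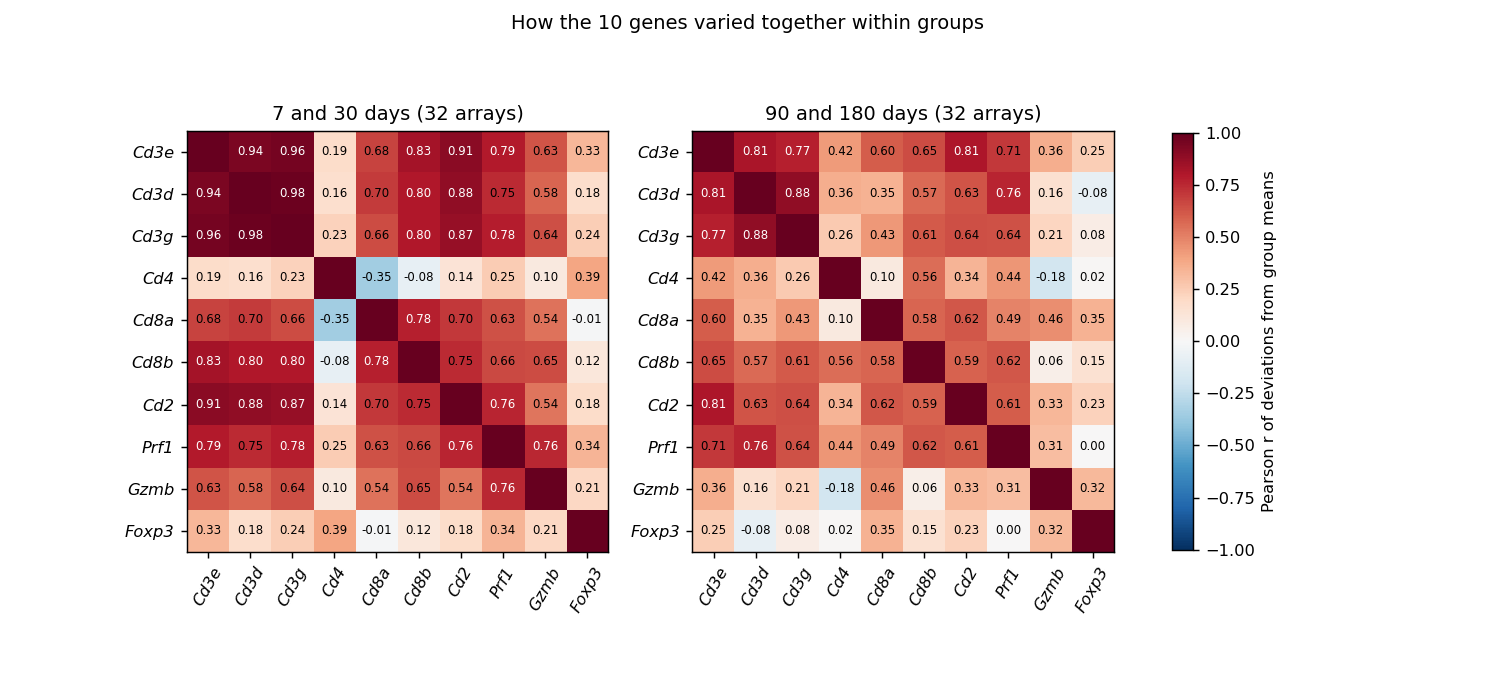
Pearson r of deviations from the group means for each pair of the 10 genes, over the 32 arrays of 7 and 30 days (left) and the 32 of 90 and 180 days (right). The CD3 chains form a block at 0.94 to 0.98 on the left and 0.77 to 0.88 on the right.

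The genes most like the mean deviation of the CD3 chains were sought among the 13171 probes well above background on at least 32 arrays, by Pearson r over 64 arrays. Among them were Sit1 at 0.94, Rinl at 0.93, Zap70 at 0.93 and Cd247 at 0.92. Zap70 is a kinase of T cell receptor signalling, Sit1 is an adaptor of it and Cd247 is the zeta chain of the receptor complex. The median over all probes compared was -0.0017, and 41 probes had an r above 0.8. Of the other members, Cd2 reached 0.81 with the CD3 mean, Prf1 0.76, Cd8b 0.72, Cd8a 0.59, Gzmb 0.44, Cd4 0.30 and Foxp3 0.15.

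Macrophage markers moved with 6 of the 10 genes, and the highest r was that of Cd4. Over the 64 arrays the deviations of Cd4 from its group means followed the mean of 12 macrophage markers (among them Cd68, Csf1r and Cd163) with r = 0.74 and rho = 0.70 (two-sided permutation p = 1e-05 for r, adjusted p = 0.0001 over 10 genes, the smallest they could give). It was 0.70 without the 2 farthest arrays, 0.72 over the arrays of 7 and 30 days and 0.76 over those of 90 and 180 days. For the CD3 chains r was 0.35 to 0.40 in all (rho 0.29 to 0.37, permutation adjusted p from 0.00708 to 0.0185 for r), 0.16 to 0.20 at 7 and 30 days and 0.42 to 0.53 at 90 and 180 days, and 0.26 to 0.30 without the 2 farthest arrays. Cd8b gave r = 0.46 and rho = 0.39 (adjusted p = 0.0023 for r, permutation) and Prf1 r = 0.41 and rho = 0.33 (adjusted p = 0.00708), and at 7 and 30 days these were 0.07 and 0.17. Cd2 gave r = 0.29 (permutation adjusted p = 0.0727), and Cd8a, Gzmb and Foxp3 gave 0.09, -0.05 and 0.11, which did not pass. Whether r differed between Cd4 and the other genes was not tested. This relation was looked for after the data were seen.

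**Figure D5:**
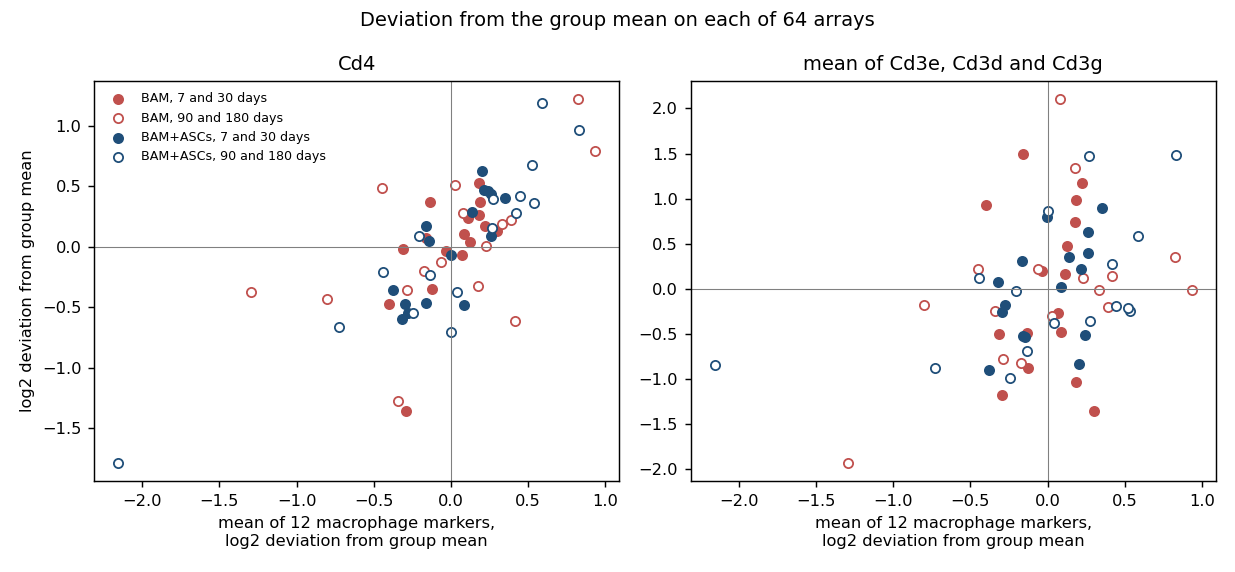
Deviation from the group mean, on the log2 scale, of Cd4 and of the mean of the CD3 chains (vertical axes) against the mean deviation of 12 macrophage markers (horizontal axes), 1 point per array and 64 arrays. Cd4 follows the macrophage markers with r = 0.74, and each CD3 chain did so with r from 0.35 to 0.40.

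The same markers were set beside the graft differences of Cd4. At 30 days 12 of 12 macrophage markers lay below 0 with ASCs, 0 of them called, with a median of -0.78 against 0.11 over all probes. Their log2 summed level ran from 6.59 to 7.24 with ASCs and from 7.33 to 7.56 with BAM only, without overlap, a sum that includes Lyz2, saturated on 59 arrays. The mean log2 level of the 12 overlapped, since it reached 1.72 in the highest seeded array and 1.67 in the lowest BAM only array. At 90 days 10 of 12 were below 0 with a median of -0.31, close to the -0.28 of all probes, the summed level running from 4.48 to 7.01 with ASCs and from 5.34 to 6.74 with BAM only, and the 1 called was Lyz2, higher by 0.81. At 180 days 12 of 12 were above 0 (median 0.20 against 0.05 over all probes). In each group, 0 of the 12 were below background on all 8 arrays. Of 8 pan-leukocyte markers 7 lay below 0 at 30 days, with Cd48 called (-0.63, limma adjusted p = 0.00581), 8 below 0 at 90 days and 8 above 0 at 180 days. The part of these cells in the Cd4 result was not tested.

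Other genes of T cell function were counted by lists written by hand. Their counts are to be read beside the share of all gene probes called between the grafts. That share was 7.75%, 1.66% and 2.42% in either direction at 7, 30 and 180 days, and 8.78% in the lower direction at 90 days. The share called higher at 90 days is not given, so genes called higher at that day have no such share beside them. At 90 days all 8 seeded arrays lay above all 8 BAM only arrays in 372 of 30346 probes, and below them in 590. Of 21 measured genes of T cell receptor signalling, such as Lck and Zap70, 0 were called between the grafts at any day, and 18, 20 and 17 of them lay below 0 at 7, 30 and 90 days, with medians of -0.49, -0.75 and -0.47. At 180 days 14 of 21 lay above 0, with a median of 0.20. From 30 to 90 days with BAM only, 7 of the 21 fell, where 9.4% of all probes fell, and 3 rose. Over that step 8387 of 30358 probes had all 8 arrays of 90 days above all 8 of 30 days. The median was -0.97 against 0.30 over all probes. From 90 to 180 days 3 fell, where 4.21% of all probes fell, and 0 rose.

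Of 11 transcription factors and cytokine receptors of T cells, Gata3 was higher with ASCs at 7 days (1.89, limma adjusted p = 4.52e-05) and Runx3 lower (-0.95, adjusted p = 0.00131). Gata3 drives helper T cells of the type 2 kind and is also expressed in urothelium, whose markers Upk1a, Upk1b, Upk2 and Upk3a were called higher with ASCs at the same day, a part that was not tested. At 90 days Tbx21 was higher and Il2rg, Runx3 and Lef1 were lower, Runx3 and Lef1 on probes well above background on 1 or 2 of 8 arrays per group, and at 30 and 180 days 0 of the 11 were called. Tbx21 (0.76) was brighter than 98.3% of probes and saturated on 19 arrays, and Il2rg, the shared chain of several cytokine receptors, changed by -0.78 (adjusted p = 0.00356).

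Of 9 T cell cytokines, Il13 was lower with ASCs at 7 days (-1.13, limma adjusted p = 0.00981), and 0 were called at the other days. At 7 days 9 of 9 lay below 0, with a median of -0.85 against -0.17 over all probes. In each graft group of that day only 3 of the 9 were well above background on all 8 arrays. With ASCs 3 of them, and with BAM only 2, were so on 0 of 8 arrays. Of 19 cytotoxic granule and NK cell genes, Klrk1, which encodes the activating receptor NKG2D, was lower at 7 days (-0.65, adjusted p = 0.00673) and 90 days (-0.67, adjusted p = 0.00352), and Ncr3 was called lower at 90 days, though well above background on 0 of 8 seeded and 1 of 8 BAM only arrays. At 30 days the median of these 19 was -0.82 with 13 of 19 below 0 and 0 called, and at 180 days 0 were called as well.

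Of 8 regulatory T cell genes, Ikzf2 was higher with ASCs at 7 days (1.5, limma adjusted p = 0.000875, 5 of 8 BAM only arrays well above background) and Entpd1 lower (-0.73, adjusted p = 0.00197), and 0 were called at 30 and 180 days. At 90 days Tnfrsf18 was called lower while not well above background on any array of either group. Of 19 homing genes Icam1, the endothelial ligand of the integrin LFA-1, was lower at 30 days (-0.85, limma adjusted p = 0.0044). All 8 seeded arrays lay below all 8 BAM only arrays, a separation that 1.93% of probes showed in either direction. Ccr7 and Ccr4, chemokine receptors of naive and type 2 T cells, were called lower at 90 days on probes near background: Ccr7 was well above it on 1 of 8 arrays in each group, and Ccr4 on 0 of 8 seeded and 1 of 8 BAM only arrays. At 7 and 180 days 0 of the 19 were called.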

How the data were processed

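RNA of the reconstructed wall of 64 rat bladders, 8 per group, was measured on one-color arrays designed on build rn4. The authors deposited the Agilent Feature Extraction 12.0.1.1 output of each array, whose processed signals are linear intensity values, corrected for background but not yet scaled between arrays. Depth has no meaning for arrays, and the number of arrays limits the precision. The matrix table that the authors also deposited gives intensity for the same arrays, equal to the scanner values within 0.01 on the log2 scale in 61 of 64 columns, and was used as an alternative. Per-sample columns not used numbered 0. Groups were taken from the graft and day in the labels.

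Control spots and outlier spots were left out, log2 was taken, the 75th percentile of each array was subtracted, and spots of a probe were averaged (2 to 10 for these genes). A probe counted as well above background if 0.5 or more of its spots on the array did. Of 22372 probes with a RefSeq accession, 18750 took 1 gene name from the table of assembly GRCr8. The brightest probe stood for a gene. The fit of 8 group means used limma 3.58.1 (R 4.3.3) on all 30367 gene probes of the 64 arrays, and it was tested on simulated data. Intervals cover 95% with 56 residual degrees of freedom. Where a probe was well above background on 0 of 8 arrays of a group, a fitted difference is given without a bound on the fold. Correlations used Python 3.11.15, numpy 2.4.6, pandas 2.3.3 and scipy 1.17.1, and plots matplotlib 3.10.9.

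The 10 genes, the further lists (T cell receptor signalling, T cell transcription factors and cytokine receptors, T cell cytokines, cytotoxic and NK cell genes, regulatory T cell genes, homing genes, and markers of leukocytes, macrophages, B cells, neutrophils, mast cells, smooth muscle and urothelium, and housekeeping genes) and the tests were chosen with earlier results of these data known. All 10 genes were named, and of the lists the called genes, apart from some that are not reported here. Alternatives were normexp on median signals (offset 50), quantile normalization, a percentile over detected probes, the series matrix and dim probes left out. Further ones kept outlier spots, took any probe of a gene or only the groups compared, or added a replicate block. A fit without moderation and the leaving out of each array were also run. The fit without moderation tested single contrasts of the group means by t, and the 2-way analysis of variance of the study was not repeated. Correlations with macrophage markers and at 7 and 30 days alone, the fit without the 3 arrays least like their groups, and values relative to the median of all probes were added after the data were seen. Slide could not be a block, since each slide held 1 group.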

Additional observations from a re-analysis of the deposited data

Results flagged for a closer look

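In the BAM only group of 7 days, replicate 2 stood apart for Cd4, at -3.54 on the log2 scale, where the next array was at -2.26 and the highest at -1.66. In the group with ASCs at 30 days, replicate 1 stood apart for Foxp3, at -2.75, where the next array was at -3.87 and the lowest at -4.58. That array also stood apart as a whole. It had 95.58% of gene spots well above background, the highest share of the 64 arrays, and the lowest r with the median of its group (0.913). The part of this in the Foxp3 value was not tested. Both probes were well above background on all 8 arrays of their group. Of the 80 sets of 8 arrays looked at (10 genes in 8 groups), 2 held such an array, and chance alone flags about 4.

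The Cd4 difference between the seeded and unseeded grafts changed by 1.46 from 90 to 180 days, by a limma contrast of contrasts over 64 arrays (adjusted p = 0.00715). The difference was -1.01 at 90 days and 0.45 at 180 days.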

How the results depend on the processing

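Counts of called genes between the grafts at 7 and 180 days, and from 90 to 180 days with ASCs, were 0 under all alternatives run. With dim probes left out only 2 members, Cd3d and Cd3g, were tested between the grafts at 180 days and from 90 to 180 days with ASCs. The count at 30 days, 0, was 1 (Cd4) with normexp, with quantile normalization and with only the groups compared. The count at 90 days, 1, was 0 with normexp, quantile normalization, only the groups compared and dim probes left out (2 members tested), and 0 to 2 on leaving out 1 array. With BAM only, the count from 7 to 30 days was 1 to 3 on leaving out 1 array. That from 30 to 90 days, 4, was 1 with normexp, 2 with only the groups compared and 2 to 7 on leaving out 1 array. That from 90 to 180 days, 3, was 1 with normexp, 1 with only the groups compared and 2 to 4 on leaving out 1 array. It was 0 with dim probes left out, a setting that left Cd3e, Cd4 and Cd2 untested and so could not call them. With ASCs the count from 7 to 30 days was 1 to 2 on leaving out 1 array, and that from 30 to 90 days, 1, was 2 (Cd4 and Gzmb) with only the groups compared. The count of changes of the graft difference, 1, was 0 with normexp, quantile normalization and the percentile over detected probes, and 0 to 1 on leaving out 1 array. The cause was not tested. The median difference of all probes at 90 days, -0.28, was 0.07 with normexp and 0.02 with quantile normalization.

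Directions reversed for small differences. Cd8b at 90 days was 0.49 and Foxp3 at 90 days 0.015 with quantile normalization. Prf1 at 7 days was 0.062 with the percentile over detected probes, 0.13 without the 3 arrays least like their groups and -0.22 to 0.13 on leaving out 1 array. Foxp3 was -0.080 at 7 days with normexp, 0.0084 at 30 days with the percentile over detected probes and -0.23 to 0.031 at 30 days on leaving out 1 array. Gzmb at 180 days was -0.018 to 0.52 on leaving out 1 array.

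The replicate numbers did not pair the arrays: the median r of deviations was 0.0093 for arrays of the same number and 0.0023 for others, and 9 of 32 graft pairs exceeded 0.1. With the replicate block the count with ASCs from 7 to 30 days was 1 in place of 2 and the other counts were unchanged.

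Brightness limits the 90 and 180 day values: 35.54% to 64.59% of gene spots were well above background there, and Cd3e, Cd2, Gzmb and Foxp3 were so on 3 to 7 of 32 arrays.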

Other observations

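The other cell type markers moved with the graft in several ways. Their called counts are to be read beside the shares of all probes, such as 7.75% called in either direction at 7 days. At 7 days the urothelial markers Upk1a, Upk1b, Upk2 and Upk3a, genes of the umbrella cell plaques, were higher with ASCs by 2.36, 1.79, 2.87 and 2.28 on the log2 scale, of which Upk1a was saturated on 12, Upk1b on 18, Upk2 on 1 and Upk3a on 39 of the 64 arrays, and 6 of 6 urothelial markers lay above 0 at 7, 30 and 90 days (medians 2.04, 0.69 and 1.19) and 2 of 6 at 180 days. The neutrophil receptor gene Csf3r (-1.82, limma adjusted p = 0.0002) and the granule gene Camp (-0.85) were lower at 7 days, with a median of -1.43 over 7 neutrophil markers, and 0 of the 7 were called at the other days (medians 0.80, -0.80 and 0.10). The 5 B cell markers measured had medians of -0.67, -0.81, -0.80 and 0.52 at the 4 days, with 0 called.

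The 6 mast cell markers had 0 called, with medians from -0.56 to 0.16. Of 6 smooth muscle markers, Tagln (0.99, saturated on 21 arrays) and Myh11 (1.08, saturated on 27) were higher with ASCs at 90 days and 0 were called at the other days. Among the housekeeping genes, Rplp0 (1.14), Actb (1.04) and Ppia (1.02) were called higher with ASCs at 90 days, and 0 of the list were called at the other days. These genes were saturated on 61 to 64 of the 64 arrays, so their values cannot be read as a difference in expression. At 90 days the subtracted 75th percentile ran from 9.57 to 10.38 with ASCs and from 9.86 to 11.62 with BAM only (log2 scale). Its part in the values of these genes, and in those of Tagln, Myh11, Tbx21 and Lyz2, was not tested.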
